A study of Homo sapiens with 2 samples.

Results

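RNA-Seq read counts were examined for 9 genes of the p53 network in A1847 cells, an ovarian cancer line of human origin, with and without a CRISPR edit of CARM1. The genes were chosen by name, not by a cutoff on their values, but with earlier results of these data known. They are the p53 family members TP63 and TP73, the p53 inhibitors MDM2 and MDM4, and the p53 targets CDKN1A, SESN1, SESN2, GADD45A and TP53I3. All 9 were found by Ensembl identifier among the 57736 genes of the count table. The study sequenced RNA from control and CARM1 KO cells to look into how CARM1, an arginine methyltransferase of histones and other proteins, bears on the response to inhibitors of EZH2. The parental control is A1847 with wild type CARM1, and CARM1 KO is a clone of the same line edited with a lentiviral CRISPR vector. Both were grown in RPMI medium with fetal bovine serum, and the labels list no further agent for either. Effects of CARM1 loss, of the choice of a clone and of the vector cannot be told apart in this design.

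p53 is a transcription factor that is stabilised by DNA damage and other stress and then switches on genes for cell cycle arrest, DNA repair, metabolism and apoptosis. MDM2 is itself a p53 target and marks p53 for degradation, which closes a feedback loop. TP63 and TP73 encode relatives that bind similar DNA sites, and CARM1 has been described as a coactivator of p53 acting together with the acetyltransferase EP300 and the methyltransferase PRMT1.

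There was 1 library per group, holding 30741953 reads for the parental line and 32300391 for CARM1 KO. No difference given here therefore has a replicate check, and no p-value is given. Reads were scaled by the TMM method, and levels are given as CPM, the counts a library of 1000000 scaled reads would hold. Each fold carries a 95% interval from the exact binomial distribution, which covers only the error of counting. A difference was counted as past the threshold when it exceeded 3-fold, the size used by the study, in a gene whose reads in the libraries summed to at least 10. CARM1, the targeted gene, was counted 975 times in the parental and 380 times in the CARM1 KO library, which is 2.63-fold lower (95% interval 2.33 to 2.97). Reads from an edited gene do not show whether protein is made.

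The libraries also differed in cell type markers, whose part in the results below was not tested. Over all 18563 tested genes, 12.8% were more than 3-fold higher and 11.7% more than 3-fold lower in CARM1 KO cells. Of 8 tested epithelial and ovarian carcinoma markers, 6 were more than 3-fold higher in CARM1 KO cells and 1, KRT19 with 45 and then 0 reads, was more than 3-fold lower. The summed level of that list was 1412 CPM in parental against 4751 CPM in CARM1 KO cells. WT1 had 8 reads and then 1 read, and MUC16 had 0 reads and then 1 read, so these markers of serous carcinoma were near absent from both libraries. Of 6 fibroblast markers, 4 were more than 3-fold lower in CARM1 KO cells and 1, COL1A1 with 131 and then 537 reads, was more than 3-fold higher, and the summed levels were 1008 and 21.5 CPM. COL1A2, with 16732 parental and 3 CARM1 KO reads, and PDGFRA, with 14326 and 2, made up most of the parental sum. The leukocyte markers CD3E and MS4A1 and the endothelial marker CDH5 had 0 reads in both libraries. Other leukocyte markers did have reads. CD68, with 400 parental and 1644 CARM1 KO reads, and CD14, with 1 and 9, were more than 3-fold higher in CARM1 KO cells. PTPRC had 6 reads and then 0 reads. In whole-culture RNA, fewer cells that express a gene and less RNA per cell cannot be told apart.

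Among the 8 members with at least 10 reads, SESN1 was more than 3-fold lower and TP73 more than 3-fold higher in CARM1 KO cells. Over all 18563 tested genes, 11.7% were more than 3-fold lower and 12.8% more than 3-fold higher, so the members passed this threshold about as often as other genes. At a 2-fold threshold, 4 members (MDM4, CDKN1A, SESN1 and SESN2) were lower, against 19.1% of all tested genes. TP73 and GADD45A were more than 2-fold higher, against 19.6% of all tested genes. Among 11769 protein-coding genes with at least 100 reads, a background nearer to the members in depth and chosen after seeing the data, 12.6% were more than 2-fold lower and 16.4% more than 2-fold higher. The median log2 fold change of the 8 tested members was -0.96, and that of all tested genes was -0.02.

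**Figure D1:**
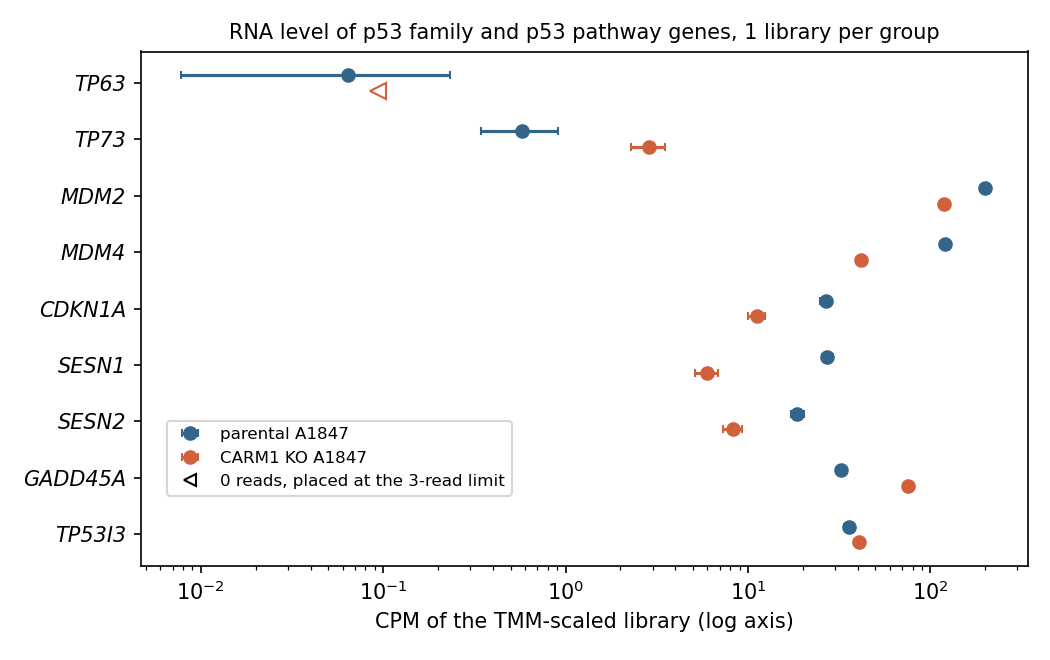
Level of each of the 9 genes in CPM after TMM scaling on a log axis, with 1 library per group and bars for exact 95% Poisson intervals. Blue points are parental and orange points CARM1 KO cells, and the open triangle marks 0 reads. MDM2, MDM4, CDKN1A, SESN1 and SESN2 lie lower in CARM1 KO cells, and TP73, GADD45A and TP53I3 lie higher.

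The p53 family was represented in these cells by little RNA. TP63, a regulator of squamous and basal epithelium that lies on chromosome 3 of GRCh37 from 189349178 to 189615065, had 2 parental reads and 0 CARM1 KO reads. A count of 0 allows up to 3 reads, or 0.0941 CPM, and the exact 95% Poisson interval of the parental level was 0.00778 to 0.232 CPM. Both counts are at or under 3 reads, so no fold is given. TP73, whose product can activate many p53 targets, lies on chromosome 1 from 3569080 to 3652765. TP73 reads numbered 18 in the parental and 91 in the CARM1 KO library, or 0.578 and 2.85 CPM. The level was 4.94-fold higher in CARM1 KO cells, with a wide 95% interval of 2.96 to 8.70 that reaches below the 3-fold threshold. Part of TP73 is also covered by the antisense gene TP73-AS1, which shares 9.35% of its exon bases. TP73-AS1 went the other way, with 1032 parental and 623 CARM1 KO reads. Whether the counting used strand is not given in the sources used here, so reads of TP73 and TP73-AS1 in the shared stretch cannot be told apart.

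Both main inhibitors of p53 were lower in CARM1 KO cells. MDM2, the ubiquitin ligase for p53, lies on chromosome 12 from 69201957 to 69239324. MDM2 was counted 6233 times in the parental and 3798 times in the CARM1 KO library, at levels of 200.1 and 119 CPM. CARM1 KO cells held 1.68-fold less (95% interval 1.61 to 1.75), which is under the threshold. MDM4, a relative of MDM2 that binds the activation domain of p53 and forms a heterodimer with MDM2, lies on chromosome 1 from 204485507 to 204527248. Its reads numbered 3748 in the parental and 1328 in the CARM1 KO library, or 120.4 and 41.6 CPM. The level was 2.89-fold lower (95% interval 2.71 to 3.08), just short of the threshold. Per kilobase of merged exons, MDM2 RNA exceeded MDM4 RNA 2.20-fold in parental and 3.79-fold in CARM1 KO cells. Other annotated genes share 14.7% of the exon bases of MDM2, and the most abundant of them, ENSG00000256664 on the same strand, had 354 and 238 reads. The full list of 9 p53 inhibitors and their partners includes MDM2 and MDM4. In it, 0 genes passed the threshold in either direction, beside 11.7% lower and 12.8% higher among all tested genes. The median log2 fold change of the list was -0.44, beside -0.02 for all tested genes. Of the 9 genes, 6 lay below parental and 3 above. Those above, named after their values were seen, were CDKN2A, RPL5 and RPL11. The list counts inhibitors together with partners, so its median does not describe the inhibitors alone.

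CDKN1A encodes p21, the inhibitor of cyclin-dependent kinases through which p53 arrests the cell cycle. It lies on chromosome 6 from 36644237 to 36655114. CDKN1A reads numbered 833 in the parental and 357 in the CARM1 KO library, or 26.7 and 11.2 CPM. CARM1 KO cells thus held 2.39-fold less (95% interval 2.11 to 2.71). The related inhibitors are named here after their values were seen. CDKN1B (p27) had 1880 and 1568 reads, a 1.23-fold difference in the direction of CDKN1A (95% interval 1.15 to 1.31). CDKN1C (p57) had 27 and 58 reads, a difference of 2.10-fold in the opposite direction to CDKN1A (95% interval 1.31 to 3.45).

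The sestrins restrain mTORC1 signalling and protect from oxidative stress. SESN1 lies on chromosome 6 between 109305512 and 109416049 (minus strand). SESN1 was counted 850 times in the parental and 190 times in the CARM1 KO library, or 27.3 and 5.96 CPM. This 4.58-fold lower level (95% interval 3.91 to 5.39) was the largest difference among the members with a lower level, and its whole interval lay past 3-fold. SESN2, which also acts as a leucine sensor and lies on chromosome 1 from 28586029 to 28609002, had 581 and 263 reads, or 18.7 and 8.25 CPM. The level in CARM1 KO cells was lower by 2.26-fold (95% interval 1.95 to 2.63). The remaining member of that family, SESN3, had 903 and 327 reads and was 2.83-fold lower (95% interval 2.49 to 3.22). SESN3 is best known as a target of FOXO factors rather than of p53, and was named after its value was seen. All 3 sestrin genes were lower in CARM1 KO cells by more than 2-fold, beside 19.1% of all tested genes. SESN1 alone passed 3-fold. Per kilobase, SESN1 stood at 0.696 times the level of SESN2 in parental and at 0.344 times in CARM1 KO cells.

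GADD45A, a growth arrest and DNA damage response gene that lies on chromosome 1 from 68150884 to 68154017, differed in the opposite direction. GADD45A reads numbered 1015 in the parental and 2404 in the CARM1 KO library, or 32.6 and 75.4 CPM. The level was 2.31-fold higher in CARM1 KO cells (95% interval 2.15 to 2.49). GADD45B, a paralog that responds to TGF-beta and NF-kappaB signalling, had 390 and 1443 reads and was 3.61-fold higher (95% interval 3.23 to 4.05), past the threshold. GADD45G, the other paralog, had 0 reads in both libraries. TP53I3, a quinone oxidoreductase also called PIG3, lies on chromosome 2 between 24300303 and 24308731 (minus strand). TP53I3 was counted 1114 times in the parental and 1292 times in the CARM1 KO library, or 35.8 and 40.5 CPM, a 1.13-fold higher level (95% interval 1.04 to 1.23). TP53I3 was the member with the smallest difference among those tested.

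Levels of different genes were ordered in CPM per kilobase of merged exons. In parental cells MDM2 was highest at 24.1 CPM per kilobase, followed by GADD45A at 16.9, TP53I3 at 15.5, MDM4 at 10.9, CDKN1A at 8.93, SESN2 at 5.39, SESN1 at 3.75 and TP73 at 0.0854. The counting intervals of GADD45A and TP53I3 overlapped in parental cells. In CARM1 KO cells GADD45A was highest at 39.2, followed by TP53I3 at 17.5 and MDM2 at 14.3. MDM4 at 3.78 and CDKN1A at 3.74 did not differ beyond counting error there. SESN2 stood at 2.38, SESN1 at 0.819 and TP73 at 0.422. Thus GADD45A and TP53I3 stood above MDM2 in CARM1 KO cells and below it in parental cells.

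Some members lie among genes that differed in the same direction. For each member, the median log2 fold change was taken over the 25 nearest expressed protein-coding genes on each side, a step chosen after seeing the data. Around MDM4, on chromosome 1 between 201924631 and 210030910, this median was -0.56. The log2 fold change of MDM4 itself was -1.53, and -0.97 after the median was subtracted. Around GADD45A the median was 0.52 and 13 of the 50 neighbours were more than 3-fold higher. GADD45A was at 1.21, and at 0.69 after subtraction. The genes around SESN1 had a median of -0.31 against -2.18 for SESN1. The neighbours of CDKN1A, MDM2 and TP73 had medians of 0.06, -0.05 and -0.12, close to that of all genes. SESN2 and TP53I3 stood against their surroundings, SESN2 at -1.17 beside a median of 0.29 and TP53I3 at 0.18 beside a median of -0.44. The part of the surrounding region in these differences was not tested.

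**Figure D2:**
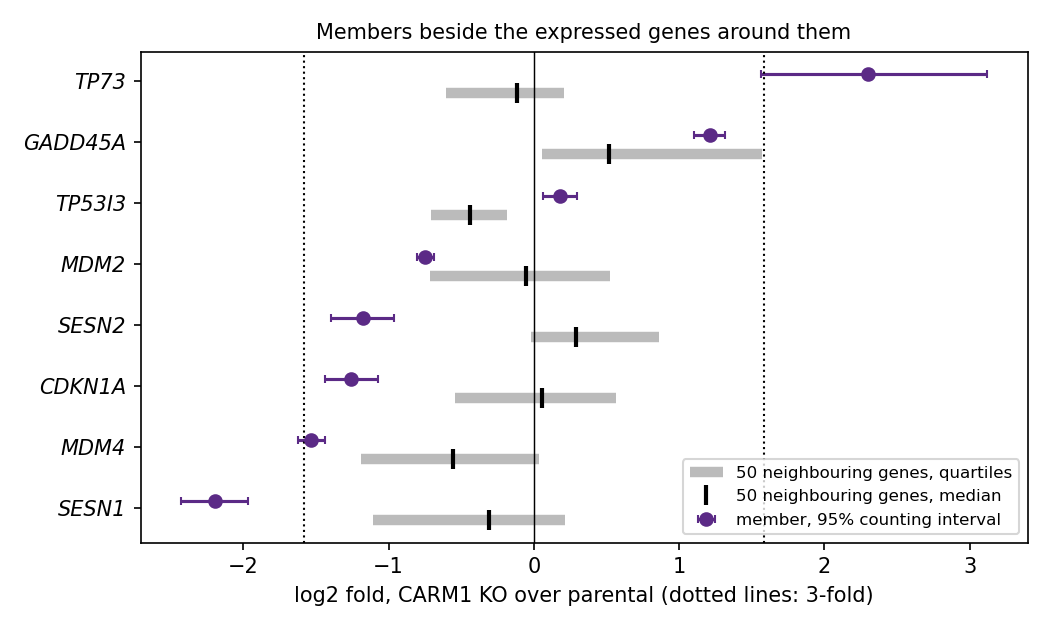
Log2 fold of CARM1 KO over parental cells for the 8 members with at least 10 reads (purple points, bars for the 95% counting interval) and for the 50 expressed protein-coding genes nearest to each (black mark for the median, grey bar from the first to the third quartile). Dotted lines mark 3-fold. SESN1 lies past the lower line, TP73 is the highest point, and the neighbours of MDM4 and GADD45A are shifted in the direction of the gene.

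The sequence around each gene start was searched for the p53 consensus to show where the members carry the letters that p53 is known to bind. The consensus is made of 2 units of 10 bases without a spacer, and the core of each unit is a C, then 2 bases of A or T, then a G. At most 2 mismatches were allowed in all, and none in the C and G of a core. The consensus is its own reverse complement, so both strands were covered. Within 2500 bases on either side of the annotated gene start, 3.69% of 19391 protein-coding genes held a match. A match was found for 3 of the 9 members (MDM2, CDKN1A and GADD45A). They are shown 5′ to 3′ on the strand of the gene in GRCh37, with the core of each unit in capitals, because they come from the best known targets and sit beside genes that differed in opposite directions.
MDM2 (chr12:69202703-69202722): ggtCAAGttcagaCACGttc
CDKN1A (chr6:36644226-36644245): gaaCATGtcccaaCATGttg
GADD45A (chr1:68152458-68152477): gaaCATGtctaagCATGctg
The MDM2 match lies in an intron 755 bases downstream of the gene start and has 2 mismatches. The CDKN1A match lies across the annotated start of the gene and also has 2 mismatches. The gene start used here is the outer end of the annotated gene, so the start of a given transcript may lie further downstream. The GADD45A match has 1 mismatch and lies in an intron 1583 bases downstream of the start. GADD45A, with the match nearest to the consensus, was higher in CARM1 KO cells, while CDKN1A and MDM2 were lower. No match in this window says only that these letters are not there. Binding of p53 was not measured.

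The wider set of p53 targets was listed by role from general knowledge, but with earlier results of these data known. Its shares therefore only describe the list. The set was lower more often than higher in CARM1 KO cells. It held 55 genes, 6 of them members, and 53 had at least 10 reads. Of these 53 genes, 11 were more than 3-fold lower and 4 more than 3-fold higher, or 20.8% and 7.55%, beside 11.7% and 12.8% of all tested genes and 6.75% and 10.1% of protein-coding genes with at least 100 reads. At 2-fold, 21 genes (39.6%) were lower and 8 (15.1%) higher, beside 19.1% and 19.6% of all tested genes. The median log2 fold change was -0.75 with the members and -0.71 without them. After the median of neighbouring genes was subtracted, it was -0.74 with the members. The summed level of the set went the other way, from 2689 CPM in parental to 3631 CPM in CARM1 KO cells. THBS1 alone made up 144.8 of the first sum and 1113 of the second.

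The targets that act in cell death had a median log2 fold change of -0.92, with 3 of 16 genes past the threshold lower and 2 higher. These are 18.8% and 12.5%, beside 11.7% and 12.8% of all tested genes. EDA2R, a death receptor of the TNF receptor family, had 274 parental and 0 CARM1 KO reads, so its level was at least 93.5-fold lower against the limit of 3 reads. The 95% counting interval, which also takes in the error of the parental count, begins at 75.5-fold. TP53INP1, a nuclear protein that promotes p53-dependent apoptosis, had 561 and 38 reads and was 15.1-fold lower (95% interval 10.9 to 21.6). BBC3, which encodes the BH3-only protein PUMA, had 160 and 30 reads and was 5.46-fold lower (95% interval 3.68 to 8.36). The genes on the other side were PMAIP1, which encodes the BH3-only protein NOXA, and PERP, a desmosomal membrane protein. PMAIP1 had 265 and 1578 reads and PERP had 488 and 1637 reads, a 3.28-fold higher level (95% interval 2.96 to 3.63).

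The targets in metabolism, redox control and autophagy had 4 of 11 genes past the threshold lower and 1 higher, and a median of -0.60. As shares, 36.4% were lower and 9.09% higher, beside 11.7% and 12.8% of all tested genes. SPATA18, a mitochondrial quality control protein, had 216 parental and 0 CARM1 KO reads, which is at least 73.7-fold lower against the same limit, with a 95% counting interval that begins at 59.4-fold. CMBL, a hydrolase, had 207 and 17 reads and was 12.5-fold lower (95% interval 7.60 to 21.8), and SESN1 belongs to the same list. DRAM1, a lysosomal membrane protein that promotes autophagy, had 747 and 5824 reads and was 7.61-fold higher (95% interval 7.06 to 8.23). This list thus held genes far out in both directions.

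The targets in cell cycle arrest and growth were divided, with a median of -0.21, 2 of 10 genes past the threshold lower and 0 higher. That is 20% and 0%, beside 11.7% and 12.8% of all tested genes. BTG2, an antiproliferative factor, had 581 and 81 reads and was 7.34-fold lower (95% interval 5.81 to 9.38). BTG2 lies in the same region of chromosome 1 as MDM4, and its neighbours had a median log2 fold change of -0.41 against -2.85 for the gene. GDF15, a secreted stress cytokine, had 49 and 11 reads and was 4.56-fold lower (95% interval 2.34 to 9.73, which reaches below 3-fold). Of the 6 targets in DNA repair and nucleotide supply, 0 passed the threshold and the median was -0.57.

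The list of targets that are secreted, lie at the cell surface or feed back on p53 held 13 tested genes. Of these, 2 were past the threshold lower and 1 higher (15.4% and 7.69%), beside 11.7% and 12.8% of all tested genes. Their median was -0.77. CSF1, the macrophage growth factor, had 334 and 75 reads and was 4.56-fold lower (95% interval 3.54 to 5.94). TNFRSF10C, a decoy receptor for TRAIL, had 99 and 30 reads and was 3.38-fold lower (95% interval 2.23 to 5.27, which reaches below 3-fold). THBS1, which encodes the matrix protein thrombospondin, had 4510 and 35487 reads and was 7.69-fold higher (95% interval 7.45 to 7.93). THBS1 is also a known target of TGF-beta signalling.

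**Figure D3:**
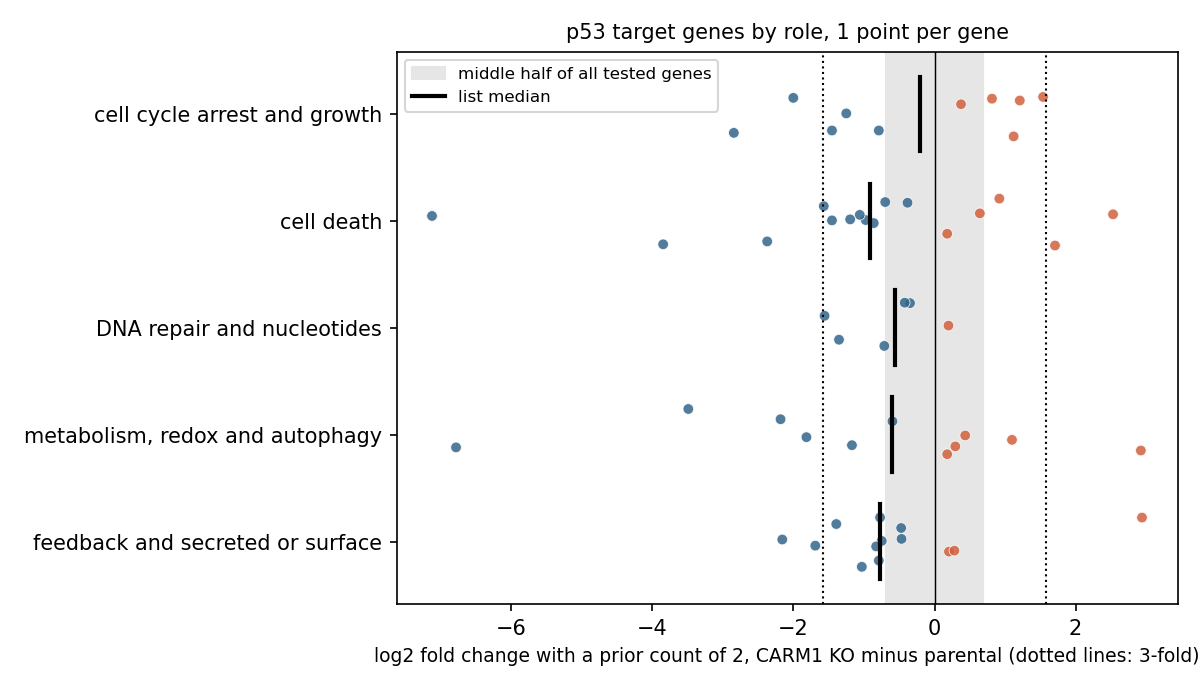
Log2 fold change of each tested p53 target, CARM1 KO minus parental, by role, with a prior count of 2. Each point is a gene (blue lower, orange higher), black bars are list medians, the grey band runs from the first to the third quartile of all tested genes and dotted lines mark 3-fold. All 5 list medians lie below 0, and the leftmost points, EDA2R and SPATA18, have 0 reads in CARM1 KO cells, so their place depends on the prior count.

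Matches to the p53 consensus were also found around 17 of the 49 targets that are not members, or 34.7%, beside 3.69% of protein-coding genes. Genes were listed because they are known targets, many of them with known p53 sites, so this share only describes the lists. The matches at the genes with the lowest levels relative to parental cells are shown in the same way.
EDA2R (chrX:65858555-65858574): gaaCATGcctggaCGTGtcc
EDA2R (chrX:65858405-65858424): gggCAAGtcagggCTTGtgt
SPATA18 (chr4:52918123-52918142): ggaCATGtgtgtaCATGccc
CMBL (chr5:10307696-10307715): acaCAAGcccacaCAAGccc
BTG2 (chr1:203272770-203272789): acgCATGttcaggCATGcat
The EDA2R pair lies in an intron 575 and 725 bases downstream of the gene start, with 1 and 2 mismatches. The SPATA18 match lies in an intron 662 bases downstream, and the BTG2 match lies 1840 bases upstream of the gene. Over members and other targets together, 20 genes held a match and 10 of these were more than 2-fold lower and 2 more than 2-fold higher in CARM1 KO cells, with a median log2 fold change of -1.02. Of the 35 tested genes without a match, 12 were lower and 7 higher at 2-fold, and the median was -0.47. Among all tested genes, 19.1% were more than 2-fold lower and 19.6% more than 2-fold higher. The genes whose match had 0 mismatches, PLK2 and ZMAT3, were named after their values were seen. Their log2 fold changes were 0.38 and -0.38. The difference between genes with and without a match was not tested.

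**Figure D4:**
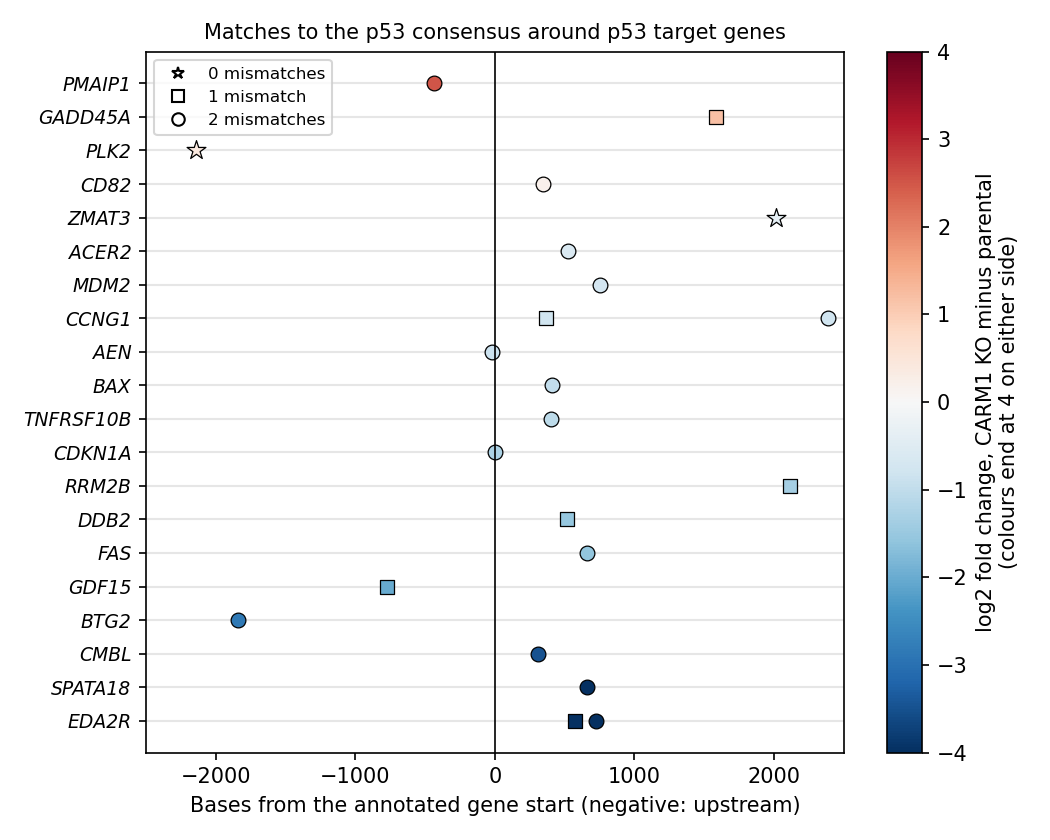
Position of each match to the p53 consensus in bases from the annotated gene start for the 20 genes with a match, ordered by log2 fold change (CARM1 KO minus parental) from highest at the top. Symbols give the number of mismatches and colours the log2 fold change, with the scale ending at 4 on either side. Most of the genes are blue, that is lower in CARM1 KO cells, and PMAIP1, GADD45A, PLK2 and CD82 at the top are higher. CD82 was named after its value was seen.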

How the data were processed

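RNA libraries from 1 parental and 1 CARM1 KO sample of A1847 were made with a ScriptSeq kit and sequenced as read pairs. Alignment by the authors was to hg19 by bowtie2. RSEM estimates per Ensembl gene were deposited as raw whole-number counts. RSEM shares out reads that fit several genes, so close copies of a gene have uncertain counts. The Ensembl release is not given in the sources used here.

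Genes were named by Ensembl identifier from GENCODE lifted to GRCh37, which is hg19, and 55501 of 57736 identifiers matched. Of 118 listed symbols, 1 had no row. Counts were scaled by TMM in edgeR 4.0.16 under R 4.3.3. A quasi-likelihood fit needs replicates, so the values given rest on no test, and edgeR's exact test with an assumed spread was run only as an alternative. A count of 0 was set to 3 reads for folds, and log2 fold changes used a prior count of 2. The steps were tested on simulated counts. Alternatives were library size, DESeq2 1.42.0 size factors, upper-quartile scaling, other read minimums, folds and call rules.

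The members, lists and settings were chosen with earlier results of these data known. The text names the 9 members, CARM1 and, from each other list, up to 3 genes past 3-fold in each direction, and markers or paralogs near 0 reads, and says where others were added. Some genes are not reported here.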

Additional observations from a re-analysis of the deposited data

How the results depend on the processing

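With 1 library per group, none was left out and no replicate spread exists, so the alternatives show only what the processing changes. The other scalings (library size only, DESeq2 size factors, upper-quartile) and a smaller prior count turned no direction among the genes past the threshold. With library size only, FAS and DDB2, named after their values were seen, also passed 3-fold, both lower. No paired analysis was possible because each group holds 1 library.

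At a 2-fold threshold, 2 members were higher and 4 lower, 8 p53 targets were higher and 21 lower, and 3631 of all genes were higher and 3537 lower, against 2372 and 2175 at 3-fold. When the whole counting interval had to lie past 3-fold, TP73 was lost and 0 members were higher, with 1292 genes higher and 1234 lower in all. The p53 targets past the threshold then fell from 4 to 3 higher and from 11 to 9 lower. Those lost were PERP, GDF15 and TNFRSF10C. edgeR's exact test with an assumed coefficient of variation of 0.12, an FDR under 0.05 and the 3-fold threshold kept each count within 1.5 times. At a coefficient of 0.4, 0 members were higher or lower, 2 p53 targets were higher and 5 lower, and 543 genes were higher and 888 lower, as the wider assumed spread leaves fewer calls. With at least 50 reads, 1219 genes were lower, since fewer genes were tested. Allowing at most 1 mismatch left 1 member and 7 other targets with a match to the p53 consensus. TP63, TP73 and GDF15 rest on few reads, and depth limits their values.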

Other observations

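Of the genes that act on p53, few passed the threshold, beside 11.7% lower and 12.8% higher among all tested genes. The lists are short, and whether they differ from those shares was not tested. Among 6 p53-activating kinases, HIPK2, which phosphorylates p53 in the apoptotic response, had 507 parental and 1645 CARM1 KO reads, a 3.17-fold higher level (95% interval 2.87 to 3.51). No other gene of that list passed the threshold, and the median log2 fold change of the list was 0.08. The 5 p53 coactivators, which include CARM1, had a median of -0.65 with 0 past the threshold. EP300, named after its value was seen, had 1336 and 674 reads and was 2.03-fold lower (95% interval 1.85 to 2.23). PRMT1, named in the same way, had 5532 and 3612 reads. The 3 ASPP family regulators of p53 had a median of 0.55 with 0 past the threshold, and the 5 paralogs of the members, 4 of them tested, had a median of 0.36 with GADD45B past the threshold.

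Of 10 cell cycle genes that p21 is known to repress, 0 passed the threshold in either direction. Among all tested genes, 11.7% were past it lower and 12.8% higher. The median log2 fold change of the 10 genes was -0.06, beside -0.02 for all tested genes. Of the 10 genes, 7 lay below parental and 3 above. Their summed level was 1602 CPM in parental and 1204 CPM in CARM1 KO cells. The lowest relative to parental cells was PLK1, named after its value was seen. PLK1 had 1192 and 679 reads and was 1.80-fold lower (95% interval 1.63 to 1.98). The highest, E2F1, named in the same way, had 342 and 587 reads and was 1.68-fold higher (95% interval 1.46 to 1.92). The leukocyte list had 2 tested genes, CD14 with 1 and 9 reads and CD68 with 400 and 1644 reads, both more than 3-fold higher, while KDR, an endothelial marker, had 10 reads in each library.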
